A study of Mus musculus with 6 samples.

Results

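The IL-1, IL-18 and IL-33 system was followed through 10 genes of the deposited expression table, out of 54532 genes in all. They were chosen by name, with earlier results of these data known. These genes are 3 ligands (*Il1a*, *Il1b* and *Il18*), 1 antagonist (*Il1rn*) and 6 receptor chains (*Il1rl1*, *Il1r1*, *Il1rap*, *Il1r2*, *Il18r1* and *Il18rap*). RNA-sequencing compared GFP+ mouse AML cells sorted from bone marrow in 3 *WT Phf6,RE9a* libraries (replicates 1, 2 and 3) and 3 *VC Phf6,RE9a* libraries (replicates 11, 12 and 13). Both groups came from fetal liver Lin- cells of male donors with a floxed *Phf6* allele (*Phf6* fl/y), were transformed by the RE9a-GFP retrovirus, which encodes the RUNX1-ETO9a fusion protein, and were serially transplanted into male recipients. The *VC Phf6,RE9a* donors also carried Vav1-Cre, a Cre recombinase active in blood cells, and the *WT Phf6,RE9a* donors did not. Whether the libraries of a group are from different mice or leukemias is not given in the labels, so the p-values measure only the spread between these libraries.

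The IL-1 family signals through receptors built from a ligand-binding chain and an accessory chain. IL-1α and IL-1β bind IL1R1, IL-33 binds ST2 (encoded by *Il1rl1*), and both receptors then recruit IL1RAP. IL-18 binds IL18R1, which pairs with IL18RAP. All of these complexes pass the signal through MyD88 and IRAK kinases to NF-κB. IL1R2 is a decoy that binds IL-1 without signalling, and IL1RN is a secreted antagonist that occupies IL1R1. In the blood system ST2 is best known on mast cells, basophils and group 2 innate lymphoid cells, while IL1R2 and IL1RN are well known in neutrophils.

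Total counts ran from 15675358 to 16817994 per library, and 3 counts, which a gene read at 0 could still have, corresponded to 0.175 to 0.204 CPM (counts relative to the scaled library total). Only counting error enters this limit, because no molecular identifiers were used and reads need not be separate molecules. *Phf6* went from 1044, 827 and 1142 counts in *WT Phf6,RE9a* libraries to 388, 314 and 331 in *VC Phf6,RE9a* libraries. The 6 libraries also differed in markers of mast cells, basophils and neutrophils, and bulk values do not show which cells expressed them. The summed level of 12 mast cell and basophil markers was 19469 to 30767 CPM in *WT Phf6,RE9a* libraries and 4978 to 5429 CPM in *VC Phf6,RE9a* libraries, and that of 12 neutrophil maturation markers was 158 to 487 and 982 to 3741 CPM. None of these 24 markers was at 0 in all libraries. The sum of 7 B cell markers was 2.60 to 8.05 CPM in *WT Phf6,RE9a* and 25.8 to 72.9 CPM in *VC Phf6,RE9a* libraries. That of 9 myeloid blast markers was 2353 to 3735 and 548 to 793 CPM. The blast list shares *Kit* with the mast cell list, and its single genes differed in both directions. Fewer cells of a type and less RNA per cell cannot be told apart in such bulk samples.

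*Il1rl1* was the leading gene of the system in every library, and it was lower in *VC Phf6,RE9a* cells, together with the receptor chains *Il1r1*, *Il1rap* and *Il18r1*. The decoy receptor *Il1r2* was higher. Of the 10 genes, 8 had enough counts to be tested with edgeR's quasi-likelihood test, and at an adjusted p under 0.05 over all 14169 genes tested 4 were lower, 1 was higher and 3 did not pass. For *Il18r1* and *Il1r2* the groups overlapped, and neither gene passed in most fits with 1 library left out. The background was broad, as 44.2% of all tested genes passed, 22.7% lower and 21.5% higher. Passing the threshold was thus common among all genes, and nothing is read from the number of these genes that passed. Their levels and differences follow, with log2 fold changes as *VC Phf6,RE9a* over *WT Phf6,RE9a* and their standard error (SE). The median log2 fold change of the 8 tested genes was -0.87, and that of all tested genes was 0.01. All 4 genes called lower encode receptor chains, which made up 6 of the 8 tested genes. The ligands *Il1a* and *Il1b* also had negative log2 fold changes, without passing. *Il1rn* and *Il18* had too few counts for the test.

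**Figure D1:**
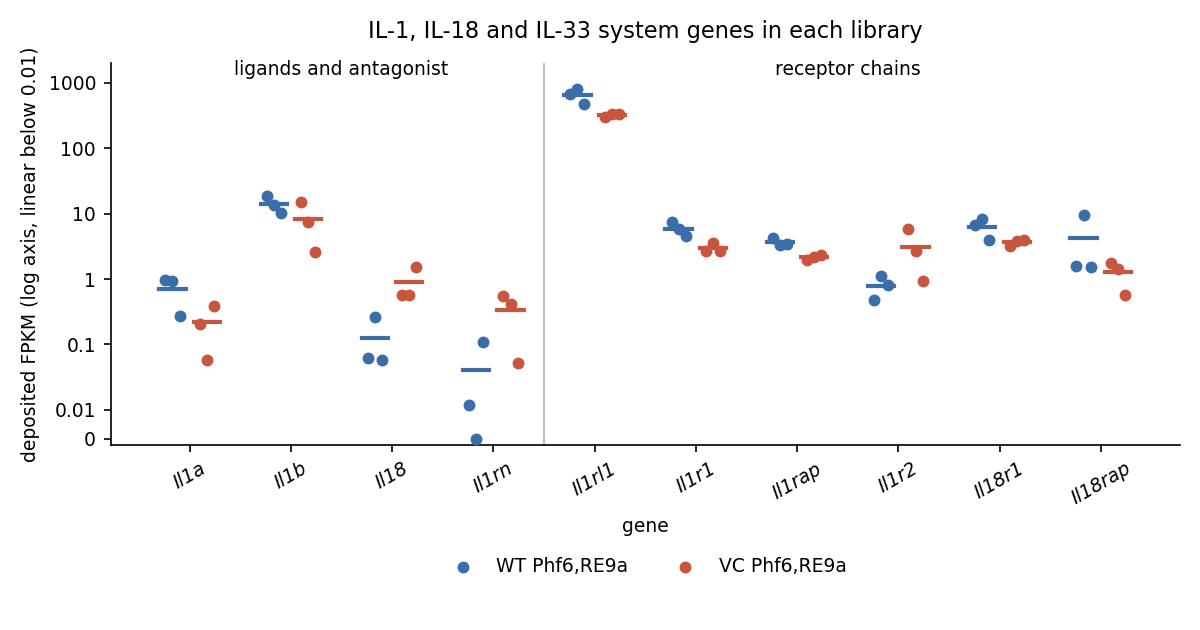
Deposited FPKM (log axis, linear below 0.01) of the 10 genes in each library, with 1 point per library and a bar at the mean of 3. *Il1rl1* stands at 305 to 802 FPKM, far above the other genes, and in *VC Phf6,RE9a* cells the 3 points of *Il1rl1*, *Il1r1* and *Il1rap* lie under those of *WT Phf6,RE9a* cells.

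*Il1rl1* encodes ST2, the ligand-binding chain of the IL-33 receptor, and lies on the plus strand of chromosome 1 from 40429570 to 40465415 (GRCm38). RefSeq gives the gene 2 starts 10059 bases apart. As background, the distal start is the one known from mast cells and the proximal start the one known from fibroblasts, and the gene makes a membrane-bound and a soluble form. The 250 bases before each start are shown because *Il1rl1* carries most of the reads of this system. They were taken from RefSeq (GRCm38.p6, plus strand), with the letters GATAA or their reverse complement, the core bound by GATA factors, in capitals.
Il1rl1 distal, chr1:40429320-40429569: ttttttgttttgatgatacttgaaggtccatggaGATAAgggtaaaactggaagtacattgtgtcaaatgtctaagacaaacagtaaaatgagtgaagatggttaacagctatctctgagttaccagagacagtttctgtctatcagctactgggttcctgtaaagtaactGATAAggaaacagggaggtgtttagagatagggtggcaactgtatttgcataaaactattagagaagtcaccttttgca
Il1rl1 proximal, chr1:40439379-40439628: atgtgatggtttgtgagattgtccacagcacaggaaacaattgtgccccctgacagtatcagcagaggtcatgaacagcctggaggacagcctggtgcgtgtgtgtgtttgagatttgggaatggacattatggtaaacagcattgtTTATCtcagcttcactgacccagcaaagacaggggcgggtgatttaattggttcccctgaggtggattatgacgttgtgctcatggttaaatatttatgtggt
The distal window held the motif at positions -216 and -79, counted back from the base before the start, which is -1, and the proximal window held it at -103. Among 32851 RefSeq promoter windows of the same length, 22.6% held at least 1 GATAA on either strand. TGTGGT, the core bound by RUNX factors, searched for on either strand, was found once, at -6 in the proximal window, and 4614 of the 32851 windows held it. A match is a description of the letters and not a measured binding site. The motifs were chosen with these sequences in view, and counts per gene do not show which start or form the reads come from.

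The counts of *Il1rl1* were 70969, 82195 and 55372 in *WT Phf6,RE9a* libraries and 36139, 39806 and 40255 in *VC Phf6,RE9a* libraries. Every *VC Phf6,RE9a* library lay below every *WT Phf6,RE9a* library, and the *VC Phf6,RE9a* libraries were closer to each other. The level was 4512 ± 1116 CPM and fell to 2282 ± 133 CPM (SD, n = 3), with a log2 fold change of -0.98 ± 0.19 (SE, edgeR adjusted p = 0.00471). Groups that did not overlap, with the lower values in *VC Phf6,RE9a* cells, were found for 28.4% of all tested genes. Even after this fall *Il1rl1* took 0.222% to 0.251% of all counts of a *VC Phf6,RE9a* library, against 0.332% to 0.524% in *WT Phf6,RE9a* libraries. By mean FPKM, which sets the counts per gene length, it ranked 46 among all genes in *WT Phf6,RE9a* cells and 103 in *VC Phf6,RE9a* cells. Its FPKM was 20.3 to 85.2 times that of the next gene of the system within the same library. Of the 12 mast cell and basophil markers 11 were also lower, where 22.7% of all tested genes were. The median log2 fold change of the 12 was -3.88, far beyond that of *Il1rl1*. *Ms4a2* did not pass (-0.13, edgeR adjusted p = 0.519). The part of these markers in the fall of *Il1rl1* was not tested. Group 2 innate lymphoid cells also carry ST2, but 4 of their 7 markers had too few counts for the test and most of the summed level (41.5 to 58.9 and 157 to 179 CPM) came from *Gata3* alone, so the part of these cells was not tested.

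The genes whose pattern over the 6 libraries was most like that of *Il1rl1* were *Ralgps1*, *Ago2* and *Stk10*. The root mean square difference of their log2 CPM, centred per gene, was 0.051, 0.061 and 0.071 among 14161 genes compared. *Ago2*, the small RNA-guided Argonaute protein, went from 945 to 501 CPM. A likeness over 6 libraries in 2 groups is a description only.

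*Il1r1*, the signalling receptor of IL-1, lies on chromosome 1 from 40225080 to 40317257. It had 720, 549 and 485 counts in *WT Phf6,RE9a* libraries and 291, 392 and 292 counts in *VC Phf6,RE9a* libraries. The groups did not overlap, since the lowest *WT Phf6,RE9a* library stood above the highest *VC Phf6,RE9a* library. The level was 37.8 ± 8.71 CPM and 19.1 ± 3.22 CPM (SD, n = 3), with a log2 fold change of -0.98 ± 0.20 (SE, edgeR adjusted p = 0.00550). This is the same size of change on the log2 scale as for *Il1rl1*, at a far lower level.

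*Il1rap*, the accessory chain shared by the IL-1 and IL-33 receptors, lies apart from the other receptor genes, on chromosome 16 from 26581704 to 26730117. The gene had 744, 555 and 658 counts in *WT Phf6,RE9a* libraries and 381, 424 and 453 in *VC Phf6,RE9a* libraries, again with no overlap. It fell by 0.76 ± 0.13 in log2 units (SE, edgeR adjusted p = 0.00277), from 41.9 ± 5.63 to 24.7 ± 2.21 CPM (SD, n = 3). *Il1rl1*, *Il1r1* and *Il1rap* each passed the threshold under all 11 alternative settings, with log2 fold changes of -1.18 to -0.80, -1.16 to -0.79 and -0.83 to -0.57. Of the genes tested, 45.5% passed with DESeq2, 44.2% with RLE size factors and 24.7% with no filter. The share was 43.7% with at least 10 counts in every library and 42.8% with limma on log2(FPKM + 1). No such share was computed for the fits with 1 library left out. No change of these 3 genes reached 2-fold in the comparison of all libraries.

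The IL-18 receptor chains were less clear. *Il18r1*, the chain that binds IL-18, starts 136 bases after the end of *Il1rl1* and reaches from 40465552 to 40500854 on chromosome 1. It had 501, 589 and 313 counts in *WT Phf6,RE9a* libraries and 267, 318 and 330 counts in *VC Phf6,RE9a* libraries. *WT Phf6,RE9a* replicate 3 lay within the range of the *VC Phf6,RE9a* libraries, so the groups overlapped. The log2 fold change was -0.76 ± 0.26 (SE, edgeR adjusted p = 0.0438). The call was lost without any one library other than *WT Phf6,RE9a* replicate 3 (log2 fold change -0.83 to -0.52, edgeR adjusted p from 0.0768 to 0.133), while without that library it was -1.03 (adjusted p = 0.00263).

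*Il18rap*, the accessory chain for IL-18, lies on the same chromosome from 40515362 to 40551705. It had 166, 955 and 175 counts in *WT Phf6,RE9a* libraries and 207, 167 and 67 counts in *VC Phf6,RE9a* libraries. *WT Phf6,RE9a* replicate 2 stood far above the other 5, which overlapped. The log2 fold change of -1.73 ± 0.76 (SE, edgeR adjusted p = 0.101) did not pass, and without *WT Phf6,RE9a* replicate 2 it was -0.31 (adjusted p = 0.603). In a fit with no count filter the call was made (adjusted p = 0.0435). *WT Phf6,RE9a* replicate 2 also stood apart from the other *WT Phf6,RE9a* libraries in genes picked out here after their values were seen. *Cd34*, a progenitor marker, was at 773 CPM there against 205 and 170 CPM, and *Nlrc4*, an inflammasome sensor, had 181 counts against 26 and 19. *Casp4*, an inflammatory caspase, had 96 counts against 12 and 21. T and NK cells are well known to carry *Il18rap*, but only 1 of their 12 markers, *Nkg7*, had enough counts for the test. The summed marker level was 1.97 to 3.64 CPM in *WT Phf6,RE9a* and 5.29 to 11.2 CPM in *VC Phf6,RE9a* libraries of these GFP+ cells, and the part of T and NK cells in *Il18rap* was not tested.

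*Il1r2*, the decoy receptor, was the only tested gene of the 10 that was higher. It lies on chromosome 1 from 40074079 to 40125231, and the RefSeq start used here lies inside these bounds. Its promoter window (RefSeq, GRCm38.p6, plus strand) is shown because of this opposite direction, with CACGTG, the E-box read by MYC and related proteins, in capitals.
Il1r2, chr1:40085843-40086092: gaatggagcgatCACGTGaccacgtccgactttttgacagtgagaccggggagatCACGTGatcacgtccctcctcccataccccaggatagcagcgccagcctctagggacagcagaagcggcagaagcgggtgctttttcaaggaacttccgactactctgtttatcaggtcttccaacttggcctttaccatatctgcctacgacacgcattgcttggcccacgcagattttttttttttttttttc
The window held CACGTG at -238 and -195 and 1 GATAA, on the opposite strand, at -86. The E-box was found in 6.02% of the 32851 windows and in 1 of the 16 windows of the 10 genes, all of which had an entry. GATAA was found in 4 of the 16 and TGTGGT in 2, while the consensus for NF-κB, found in 7.25% of all windows, was present in 1, of *Il1r1*.

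*Il1r2* had 14, 31 and 26 counts in *WT Phf6,RE9a* libraries and 192, 87 and 30 counts in *VC Phf6,RE9a* libraries. *VC Phf6,RE9a* replicate 11 was the highest and *VC Phf6,RE9a* replicate 13 lay within the *WT Phf6,RE9a* range. The level was 1.53 ± 0.60 and 6.06 ± 4.85 CPM (SD, n = 3), and the log2 fold change was 1.98 ± 0.65 (SE, edgeR adjusted p = 0.0398). Without any one library other than *VC Phf6,RE9a* replicate 13 it was lost (log2 fold change 1.16 to 2.28, edgeR adjusted p from 0.0565 to 0.149), and the lowest value was the one without *VC Phf6,RE9a* replicate 11. Without *VC Phf6,RE9a* replicate 13 it was 2.42 (adjusted p = 0.00839). Gene models without a known function overlap *Il1r2*. *Gm37347*, on the same strand, had 1, 7 and 5 counts in *WT Phf6,RE9a* libraries and 61, 34 and 16 in *VC Phf6,RE9a* libraries, and *Gm16894*, antisense, had 0, 0 and 3 and 11, 13 and 2 counts. The counting was not stated to use strand, so reads of these models and of *Il1r2* may not be told apart.

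The balance between signalling and decoy receptor was compared per gene length within each library. The ratio of *Il1r1* to *Il1r2* FPKM was 15.4, 5.31 and 5.59 in *WT Phf6,RE9a* libraries and 0.454, 1.35 and 2.92 in *VC Phf6,RE9a* libraries. Each *VC Phf6,RE9a* ratio lay below each *WT Phf6,RE9a* ratio, and in *VC Phf6,RE9a* replicate 11 the decoy exceeded the receptor. The limits of *Il1r2* hold for its ratio too, namely few counts, a wide spread between *VC Phf6,RE9a* libraries and overlapping gene models. The mean log2 ratio went from 2.95 ± 0.87 to 0.28 ± 1.35 (SD, n = 3), a difference of -2.67 with p = 0.1 in an exact 2-sided permutation test, the smallest value that 3 against 3 libraries can give.

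**Figure D2:**
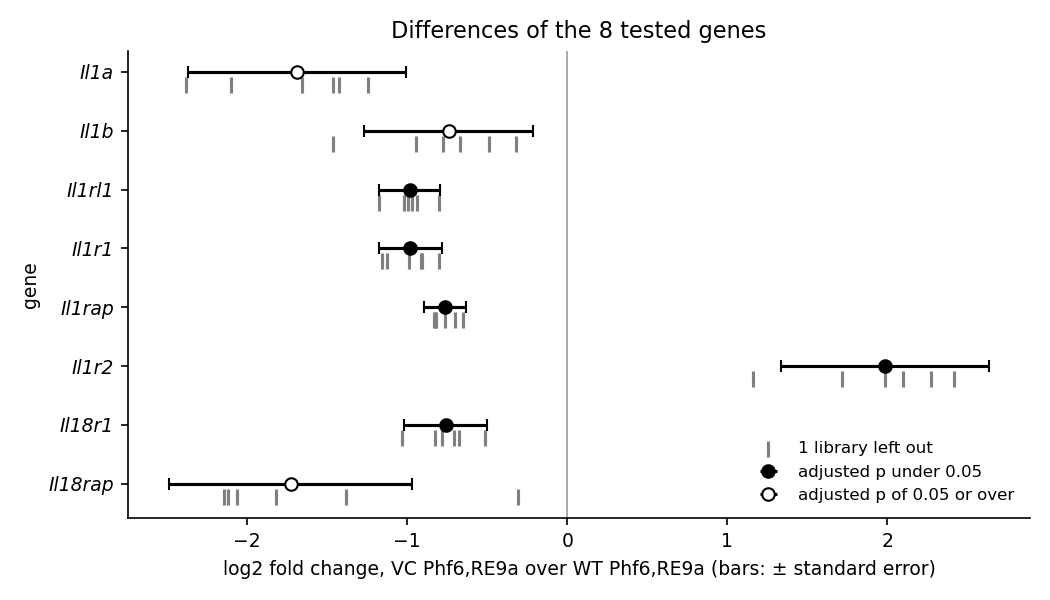
Log2 fold change (points, with standard errors) of the 8 tested genes, *VC Phf6,RE9a* over *WT Phf6,RE9a*, with filled points for an adjusted p under 0.05 from edgeR and grey ticks for the fits with 1 library left out. The ticks of *Il1rl1*, *Il1r1* and *Il1rap* stay close to their points, while those of *Il18rap* run from -2.14 to -0.31.

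Of the ligands, *Il1b* was the most abundant. *Il1b* encodes IL-1β, which is made as a precursor and cut by caspase-1, and lies on the minus strand of chromosome 2 from 129364570 to 129371139. It had 552, 381 and 328 counts in *WT Phf6,RE9a* libraries and 492, 250 and 86 in *VC Phf6,RE9a* libraries. *VC Phf6,RE9a* replicate 11 lay among the *WT Phf6,RE9a* libraries and *VC Phf6,RE9a* replicate 13 far below them. The log2 fold change of -0.74 ± 0.53 (SE, edgeR adjusted p = 0.291) did not pass, and ranged from -1.46 without *VC Phf6,RE9a* replicate 11 to -0.32 without *VC Phf6,RE9a* replicate 13. The antisense gene *Il1bos*, which overlaps it by 1243 bases, had 189, 90 and 162 counts in *WT Phf6,RE9a* libraries and 42, 46 and 61 in *VC Phf6,RE9a* libraries. The genes most like *Il1b* over the libraries (*Gm8615*, *Gm37802* and *Fndc9*) differed from it by a root mean square of 0.283 to 0.297 log2 CPM, so that no gene followed it as closely as *Ralgps1* followed *Il1rl1*.

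*Il1a*, which encodes IL-1α, lies beside it from 129299610 to 129309972 and was scarce. It had 29, 27 and 9 counts in *WT Phf6,RE9a* libraries and 7, 2 and 13 counts in *VC Phf6,RE9a* libraries, with *VC Phf6,RE9a* replicate 13 above *WT Phf6,RE9a* replicate 3. The log2 fold change was -1.69 ± 0.68 (SE, edgeR adjusted p = 0.0782), and without *WT Phf6,RE9a* replicate 3 it passed, at -2.10 (adjusted p = 0.0317). Without each of the other libraries it did not pass, with values from -2.38 without *VC Phf6,RE9a* replicate 13 (edgeR adjusted p = 0.0517) to -1.24 without *VC Phf6,RE9a* replicate 12 (adjusted p = 0.190). The opposite-strand gene *Gm14023*, which overlaps *Il1a* by 8217 bases, had 9 to 17 counts per library, as many as *Il1a* itself in several of them.

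*Il18*, the ligand of the IL-18 receptor on chromosome 9 (50554827 to 50581840), was read at 1, 4 and 1 counts in *WT Phf6,RE9a* libraries and 10, 10 and 27 counts in *VC Phf6,RE9a* libraries. All *VC Phf6,RE9a* libraries were higher, at levels that remained low. Groups without overlap and with the higher values in *VC Phf6,RE9a* cells were found for 28.9% of all tested genes. *Il18* itself, with too few counts for the test, is not among those genes. The summed counts were 6 and 47, a depth-scaled ratio of 7.95 with a 95% counting interval of 3.39 to 22.8. *Il1rn*, the antagonist on chromosome 2 (24336853 to 24351494), was read at 1, 0 and 10 counts in *WT Phf6,RE9a* libraries and 52, 40 and 5 counts in *VC Phf6,RE9a* libraries. *VC Phf6,RE9a* replicate 13 lay under *WT Phf6,RE9a* replicate 3, so the groups overlapped. Its summed counts were 11 and 97, a ratio of 8.95 with an interval of 4.79 to 18.5. These intervals cover counting error and not the spread between libraries. Only in the fit with no count filter, in which 24.7% of 26046 genes passed and 11.7% were higher, did both genes have a test, with log2 fold changes of 2.76 for *Il18* (SE 0.75, edgeR adjusted p = 0.0140) and 2.99 for *Il1rn* (SE 0.91, edgeR adjusted p = 0.0260).

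*Il33* itself, the ligand of the most abundant receptor, had 0 counts in each of the 6 libraries, which allows up to 0.204 CPM. Ordered by mean FPKM, the system in *WT Phf6,RE9a* cells read *Il1rl1* (650 ± 161), *Il1b* (14.2 ± 4.29), *Il18r1* (6.29 ± 2.21), *Il1r1* (5.90 ± 1.39), *Il18rap* (4.22 ± 4.59), *Il1rap* (3.67 ± 0.51), *Il1r2* (0.80 ± 0.31), *Il1a* (0.72 ± 0.38), *Il18* (0.13 ± 0.12) and *Il1rn* (0.040 ± 0.059; SD, n = 3). Within the run from *Il18r1* to *Il1rap* the values of each chain overlapped those of the next. The same held for *Il1r2* and *Il1a*, and for *Il18* and *Il1rn*. In *VC Phf6,RE9a* cells *Il1rl1* (327 ± 18.7) was still first and *Il1b* (8.42 ± 6.24) the second, with values that overlapped those of *Il18r1*. *Il1r2* (3.14 ± 2.51) then stood between *Il18r1* (3.68 ± 0.40) and *Il1r1* (2.97 ± 0.52), with overlapping values, and *Il1a* (0.22 ± 0.16) was last.

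A run of 6 receptor genes of the family lies within 477.6 kb of chromosome 1, in the order *Il1r2*, *Il1r1*, *Il1rl2*, *Il1rl1*, *Il18r1* and *Il18rap*. The direction of the difference was not shared along it. *Il1rl2*, the receptor of the IL-36 cytokines, had 752, 799 and 1026 counts in *WT Phf6,RE9a* libraries and 1596, 1327 and 1779 in *VC Phf6,RE9a* libraries and was higher (log2 fold change 0.75 ± 0.14, SE, edgeR adjusted p = 0.00408), although it lies between *Il1r1* and *Il1rl1*, which were lower. The next protein-coding gene before the cluster, *Map4k4*, did not pass (0.57, adjusted p = 0.334), and the next one after it, *Slc9a4*, had 0 counts in all libraries. Beside the ligand genes on chromosome 2, *Ckap2l* did not pass (0.24, adjusted p = 0.448) and *F830045P16Rik* was lower (-2.56, adjusted p = 0.00499), at 27, 10 and 19 against 3, 4 and 3 counts.

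**Figure D3:**
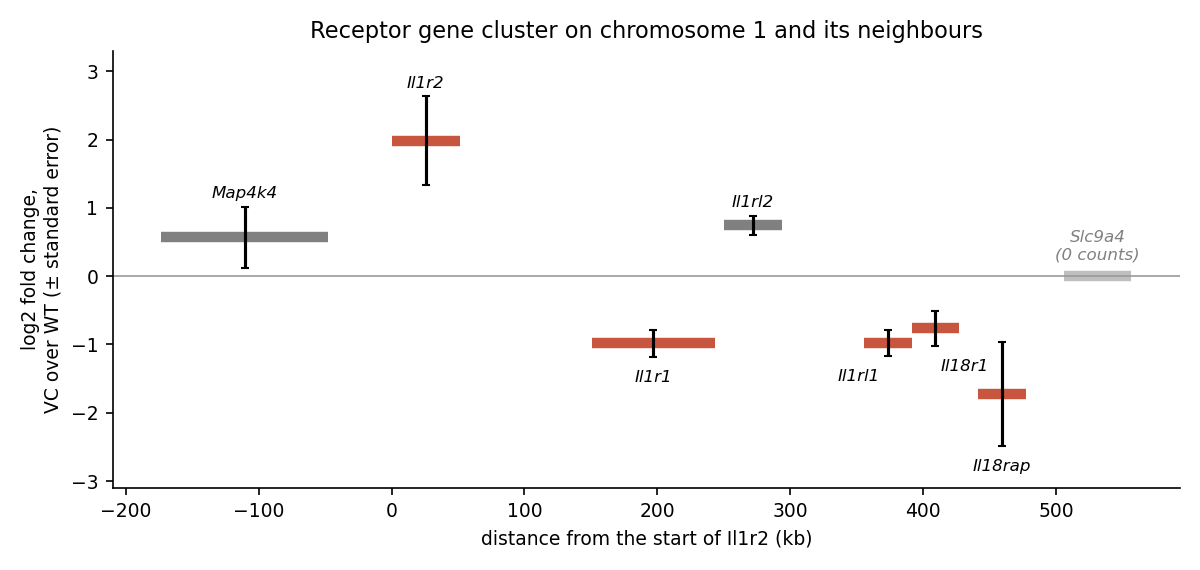
Log2 fold change (*VC Phf6,RE9a* over *WT Phf6,RE9a*, with standard errors) of the receptor genes on chromosome 1 and their nearest protein-coding neighbours, against distance from the start of *Il1r2* in kb, with each bar as long as its gene, members of the 10 in red and other genes in grey. *Il1r2* and *Il1rl2* lie above 0, and *Il1r1*, *Il1rl1*, *Il18r1* and *Il18rap* below it.

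The other genes of the IL-1 family, from a list of 11 genes found in the table, were mostly at or near 0. All 4 that could be tested were higher in *VC Phf6,RE9a* cells (median 0.77 in log2 units), where 21.5% of all tested genes were, and 6 were at 0 in all libraries (*Il33*, *Il1f6*, *Il1f8*, *Il1f10*, *Il1rapl1* and *Il1rapl2*). *Il1f9*, which encodes IL-36γ, had 9, 12 and 33 counts in *WT Phf6,RE9a* libraries and 251, 164 and 47 in *VC Phf6,RE9a* libraries (log2 fold change 2.98 ± 0.68, SE, edgeR adjusted p = 0.00984). *Sigirr*, an inhibitory receptor, had a log2 fold change of 0.38 ± 0.11 (SE, edgeR adjusted p = 0.0226), and *Il18bp*, a secreted protein that binds IL-18 and was chosen after its values were seen, one of 0.78 (SE 0.26, edgeR adjusted p = 0.0405), with 72, 99 and 64 against 172, 143 and 131 counts.

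Of the 10 genes, *Il1r2*, *Il1rn*, *Il1b* and *Il18rap* shared an order within the *VC Phf6,RE9a* libraries, in which replicate 11 was the highest and replicate 13 the lowest. *Il1f9* had it too, as did *Nlrp3*, which fell, and 17.6% of all tested genes. The summed level of the 12 neutrophil maturation markers had the same order, with 3741, 2415 and 982 CPM in *VC Phf6,RE9a* replicates 11, 12 and 13. All 12 markers were higher in *VC Phf6,RE9a* cells, where 21.5% of all tested genes were. In *WT Phf6,RE9a* libraries the sums were 196, 158 and 487 CPM, and *WT Phf6,RE9a* replicate 3, the highest, was also the highest *WT Phf6,RE9a* library for *Il1rn* and *Il1f9* but not for *Il1r2*, *Il1b* or *Il18rap*. The part of neutrophil maturation in the differences was not tested.

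**Figure D4:**
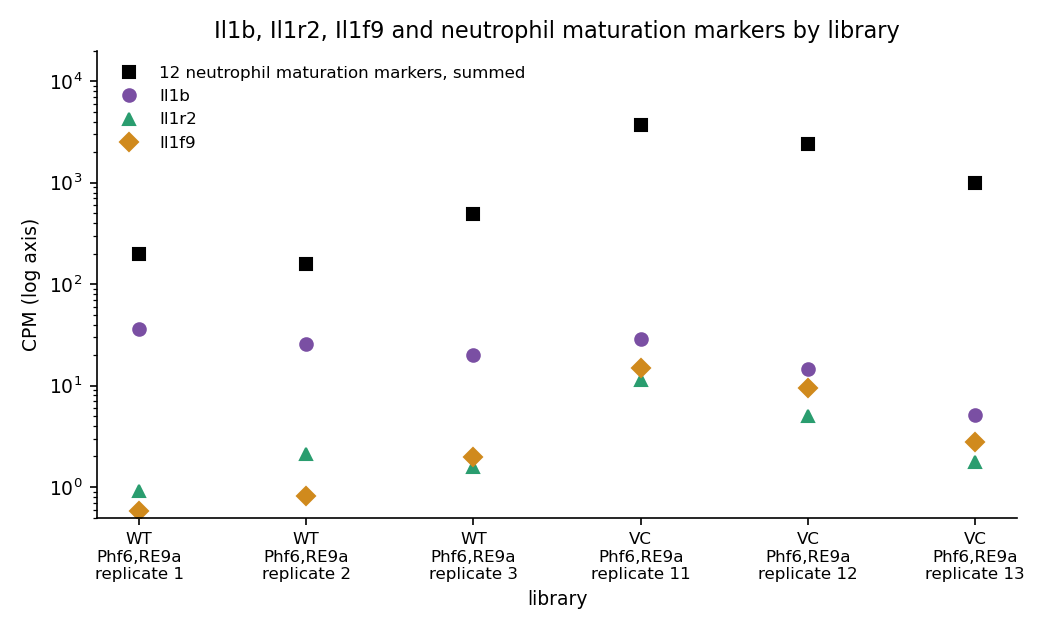
CPM (log axis) of *Il1b*, *Il1r2* and *Il1f9* and the summed CPM of 12 neutrophil maturation markers, with 1 point per library. In *VC Phf6,RE9a* libraries all of them are highest in replicate 11 and lowest in replicate 13, where *Il1r2* is at 1.78 CPM and the markers at 982 CPM. *Il1rl1*, *Il1rap* and *Il18r1*, which are not drawn, had the opposite order.

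Of 23 genes for inflammasomes and cytokine processing, 22 were tested, 8 were higher, 7 were lower and 7 did not pass, and the median log2 fold change was -0.0019. Among all tested genes 21.5% were higher and 22.7% lower. The mast cell protease gene *Cma1*, listed here for cytokine processing, is also 1 of the 12 mast cell and basophil markers. It fell from 60026, 67340 and 40116 to 903, 1321 and 1476 counts (log2 fold change -5.64 ± 0.32, SE, edgeR adjusted p = 3.2e-05). *Naip5*, a sensor of bacterial flagellin, fell by 1.21 ± 0.11 in log2 units (SE, edgeR adjusted p = 0.000194). *Capns1*, the small calpain subunit, had a log2 fold change of 0.02 (adjusted p = 0.918). Chosen after its values were seen, *Nlrp3*, the sensor of the best known inflammasome, had 1021, 1435 and 418 counts in *WT Phf6,RE9a* libraries and 179, 82 and 31 in *VC Phf6,RE9a* libraries (log2 fold change -3.46 ± 0.66, SE, edgeR adjusted p = 0.00448). *Casp1*, which encodes caspase-1 and was chosen in the same way, was scarce, at 10, 11 and 19 against 57, 20 and 20 counts (1.15, adjusted p = 0.107).

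Among 20 genes of receptor-proximal signalling, 18 were tested, 7 were lower, 2 were higher and 9 did not pass, with a median log2 fold change of -0.13. With any 1 library left out, or with limma on log2(FPKM + 1), 1 gene was higher. *Irak1*, a kinase recruited by MyD88, had a log2 fold change of -0.20 ± 0.07 (SE, edgeR adjusted p = 0.0595). *Tab1* and *Tab2*, adaptors of the kinase TAK1, differed in direction, since *Tab1* was higher (0.80 ± 0.10, SE, edgeR adjusted p = 0.000774) and *Tab2* lower (-0.54 ± 0.08, SE, edgeR adjusted p = 0.00113). The shares lower and higher may be read against 22.7% and 21.5% of all tested genes.

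Of 20 genes known to be induced by IL-1 or IL-33, 15 were tested, and 14 were lower in *VC Phf6,RE9a* cells while *Cxcl2* did not pass. Among all tested genes 22.7% were lower. The list was written with earlier results of these data known, and the paper reports lower NF-κB-related genes in the same comparison. The number lower is therefore a description and no test of a response to IL-1 or IL-33. The median log2 fold change of the list was -2.75. *Il13*, the type 2 cytokine released by mast cells after IL-33, had 857, 434 and 480 counts in *WT Phf6,RE9a* libraries and 24, 21 and 37 in *VC Phf6,RE9a* libraries (log2 fold change -4.55 ± 0.36, SE, edgeR adjusted p = 9.7e-05), and *Il6* had 522, 418 and 447 against 20, 18 and 5. The NF-κB feedback genes *Tnfaip3*, which encodes A20, and *Nfkbia*, which encodes IκBα, had the highest mean FPKM of the list over the 6 libraries. *Tnfaip3* had 53451, 42435 and 26487 counts in *WT Phf6,RE9a* libraries and 16099, 8387 and 8589 in *VC Phf6,RE9a* libraries and fell by 2.03 ± 0.35 in log2 units (SE, edgeR adjusted p = 0.00302), and *Nfkbia* fell by 1.23 (SE 0.27, edgeR adjusted p = 0.00860). The mast cell and basophil markers fell in the same libraries, and their part in these differences was not tested.

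**Figure D5:**
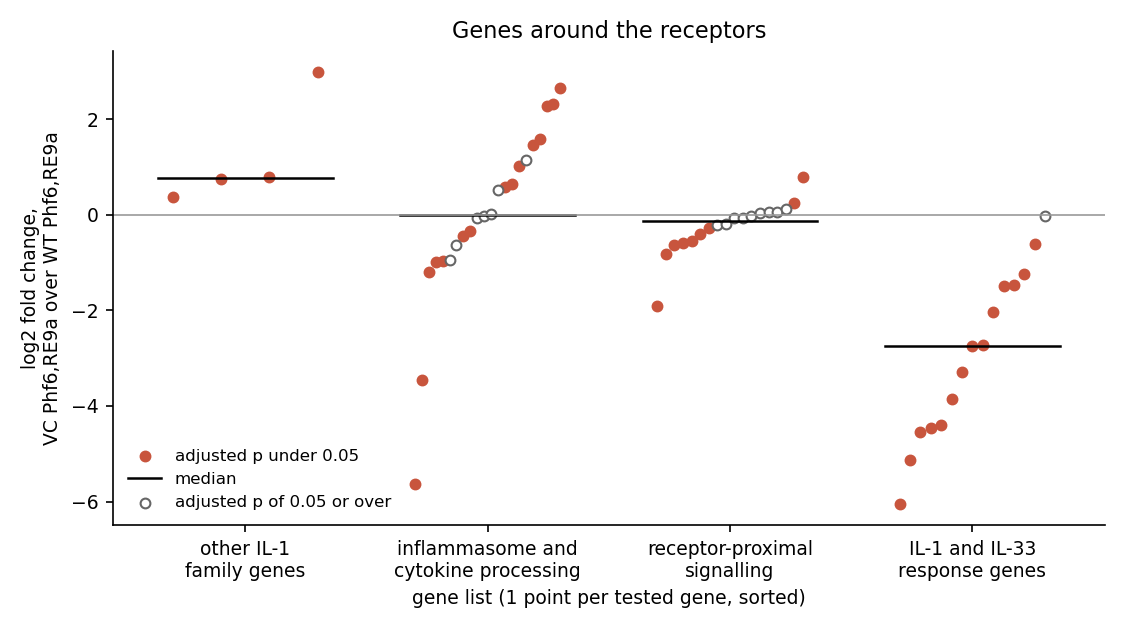
Log2 fold change (*VC Phf6,RE9a* over *WT Phf6,RE9a*) of the tested genes in 4 lists around the receptors, with 1 point per gene, filled at an adjusted p under 0.05 from edgeR, and a line at each median. The 4 tested other IL-1 family genes lie above 0, and 14 of 15 response genes are filled and below 0, with a median of -2.75.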

How the data were processed

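RNA-seq values of 3 *WT Phf6,RE9a* libraries and 3 *VC Phf6,RE9a* libraries were taken from the authors' deposited table. The authors deposited raw counts (whole numbers) for each Ensembl gene, and FPKM values equal to the counts divided by gene length and 1 constant per library. The deposited comparison columns (mean normalized counts, log2 fold changes, p-values) were not used. The submitters' processing notes name Bowtie 0.12.0 and mm8 without a role. The counting tool and strandedness are not given in the sources used here. The start and end of 98.11% of the 54532 genes were those of GENCODE M21, so coordinates are on GRCm38.

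In R 4.3.3, edgeR 4.0.16 (filterByExpr, TMM, quasi-likelihood test, Benjamini-Hochberg adjustment, threshold 0.05) compared the groups over 14169 genes, and tests were tried on simulated counts. The SE of a log2 fold change is its size over the root of F. CPM uses TMM-scaled totals. Alternatives were DESeq2 1.42.0, RLE size factors, no filter, limma 3.58.1 on log2(FPKM + 1), a minimum of 10 counts in every library, each library left out, and stricter thresholds. Named by rule are *Phf6*, the 10 genes, their chromosomal neighbours and the 3 genes most like *Il1rl1* and *Il1b*. Per list the rule added the 2 highest by FPKM and the 2 with the smallest p. Other genes were named after their values were seen, or because they overlap 1 of the 10 genes. Members and lists were chosen with earlier results of these data known.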

Additional observations from a re-analysis of the deposited data

How the results depend on the processing

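The calls of *Il1rl1*, *Il1r1* and *Il1rap* held under all settings but the 2-fold requirement, and no log2 fold change reversed under any alternative run. The number of the 10 genes called higher was 3 with no count filter, 0 with limma on log2(FPKM + 1), 0 at an adjusted p under 0.01, and 0 to 1 with 1 library left out. The number called lower was 0 when a 2-fold change was also required, and 3 to 5 with 1 library left out. Among all genes tested, 11.7% were higher with no count filter and 21.5% in the filtered edgeR comparison. With limma 42.8% passed in either direction. No share of all genes was computed for the stricter thresholds or with 1 library left out. These counts, and those of the lists below, are therefore descriptions only. With limma, *Il1r2* (log2 fold change 1.03, adjusted p = 0.0929) and *Il18r1* (adjusted p = 0.0789) lost the threshold. With a pseudocount of 1, fold changes of genes at low FPKM are understated. Fits without 1 library kept the genes tested in all 6 and assumed equal spread in both groups.

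At an adjusted p under 0.01 the other IL-1 family genes called higher were 2, the inflammasome and processing genes called higher 4, and the signalling genes 1 higher and 3 lower. With a 2-fold change required, these were 1 for the other IL-1 family genes, 3 lower for inflammasome and processing, and 0 higher and 1 lower for signalling. Limma called 1 signalling gene higher. With 1 library left out, 2 to 4 other IL-1 family genes were higher, the lowest number coming without *VC Phf6,RE9a* replicate 11 or 13. Signalling had 1 to 1 genes higher and 5 to 8 lower, inflammasome and processing 6 to 8 higher and 6 to 7 lower, and 13 to 14 response genes were lower. The log2 ratio of *Il1r1* to *Il1r2* differed by -3.30 to -1.96 with 1 library left out.

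No paired analysis was possible because the groups share no replicate number (1, 2 and 3 against 11, 12 and 13). *Il1a* gave no value with at least 10 counts in every library, and *Il1rn* and *Il18* gave one only with no filter. The ratio of *Il1b* to *Il1rn* was not computed, since *Il1rn* had 3 or fewer counts in some libraries.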
